A study of Bos taurus with 8 samples.

Results

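The unfolded protein response is the signaling by which a cell adjusts when unfolded proteins collect in the endoplasmic reticulum (ER). Its sensors, the membrane proteins IRE1 (gene *ERN1*), PERK (*EIF2AK3*) and ATF6, act through the transcription factors XBP1, ATF4, CHOP (*DDIT3*) and ATF6 itself, and downstream stand ER chaperones, amino acid supply and, after long stress, cell death. Granulosa cells, which line the ovarian follicle and secrete inhibin, activin and follistatin, carry a large secretory load. The 10 genes described here are the sensors *ERN1*, *EIF2AK3* and *ATF6*, the transcription factors *XBP1*, *ATF4* and *DDIT3*, and the effectors *PPP1R15A*, *TRIB3*, *ASNS* and *CHAC1*. They were chosen by symbol, and all 10 were found once each among the 26804 genes of the deposited table.

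Granulosa cells were collected in summer (August) and in winter from multiparous, dry Angus beef cows, named a *Bos taurus* crossbreed in the methods, that were kept outdoors together and sampled at both times. The winter month is January in the deposited design text and February in the methods. All cows received a progesterone-releasing vaginal device (CIDR), a GnRH analog and FSH before ovum pick-up in each season, and dominant follicles were not aspirated. Polyadenylated RNA was sequenced in 4 libraries of each season, each from the pooled RNA of a pair of cows, so that no value belongs to a single animal. The summer libraries carry the replicate numbers 1, 2, 3 and 5 and those of winter 1, 3, 4 and 5, and values by library follow this order. The cells were pelleted from aspirated fluid with no sorting step named, each season was a single session, and season and session cannot be told apart.

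Values are given as scaled TPM, which is TPM (transcripts per 1000000, corrected for length) recomputed without the 13 mitochondrial genes that encode proteins and then divided by a trimmed-mean factor for each library. Season was tested by limma on log2(scaled TPM + 1), with adjustment over all 13046 genes that passed a filter on low values, and log2 fold changes are summer minus winter. The depth of each library is unknown, and no counting error could be computed. The mitochondrial genes held 50.7% to 87.7% of TPM in summer and 85.1% to 92.0% in winter (means 71.1% ± 15.7 and 88.8% ± 2.85, SD, n = 4 each, two-sided exact permutation test, p = 0.0571). Granulosa cell markers, led by *INHA*, were present in every library, at a sum of 29449 to 78583 scaled TPM in summer and 14606 to 19869 in winter. Of these 10 markers, 8 were higher in summer by the adjusted p, where 11.0% of all tested genes were higher and 10.2% lower. *FOXL2*, a marker of the same list, went the other way, with medians of 50.1 scaled TPM in summer and 93.9 in winter. Its log2 fold change was -0.75 (adjusted p = 0.0991 by limma). All 10 leukocyte markers were lower in summer, with sums of 20.6 to 108 against 316 to 729 scaled TPM in winter. Also lower were 3 of 5 red cell markers (39.0 to 98.9 against 566 to 42414), 3 of 6 epithelial markers (215 to 543 against 1003 to 2890) and 4 of 8 markers of stroma and theca (245 to 542 against 418 to 1214), while 1 marker each of epithelium and of stroma and theca was higher. In such bulk samples, fewer cells of a type and less RNA per cell cannot be told apart.

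Of the 10 genes, 1 was lower in summer by the adjusted p, *TRIB3*, and none was higher. At an unadjusted p under 0.05, 1 was lower and 1, *EIF2AK3*, was higher by limma, where 16.7% of all tested genes were lower and 19.1% higher. Over all tested genes 21.2% passed the adjusted p in either direction, 11.0% higher and 10.2% lower in summer, and 12.8% also met the 2-fold criterion (6.14% higher, 6.67% lower), which *TRIB3* met too. The median log2 fold change of the 10 genes was 0.08, against 0.03 over all tested genes. The seasons did not overlap for 1 of the 10 genes, where 24.3% of all tested genes had no overlap. Outside the 10, 16 of 23 ER chaperone and degradation genes that ATF6 and XBP1 are known to induce were higher in summer, as described below. The lists of pathway genes were chosen with earlier results of these data known, so their counts are a description.

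**Figure D1:**
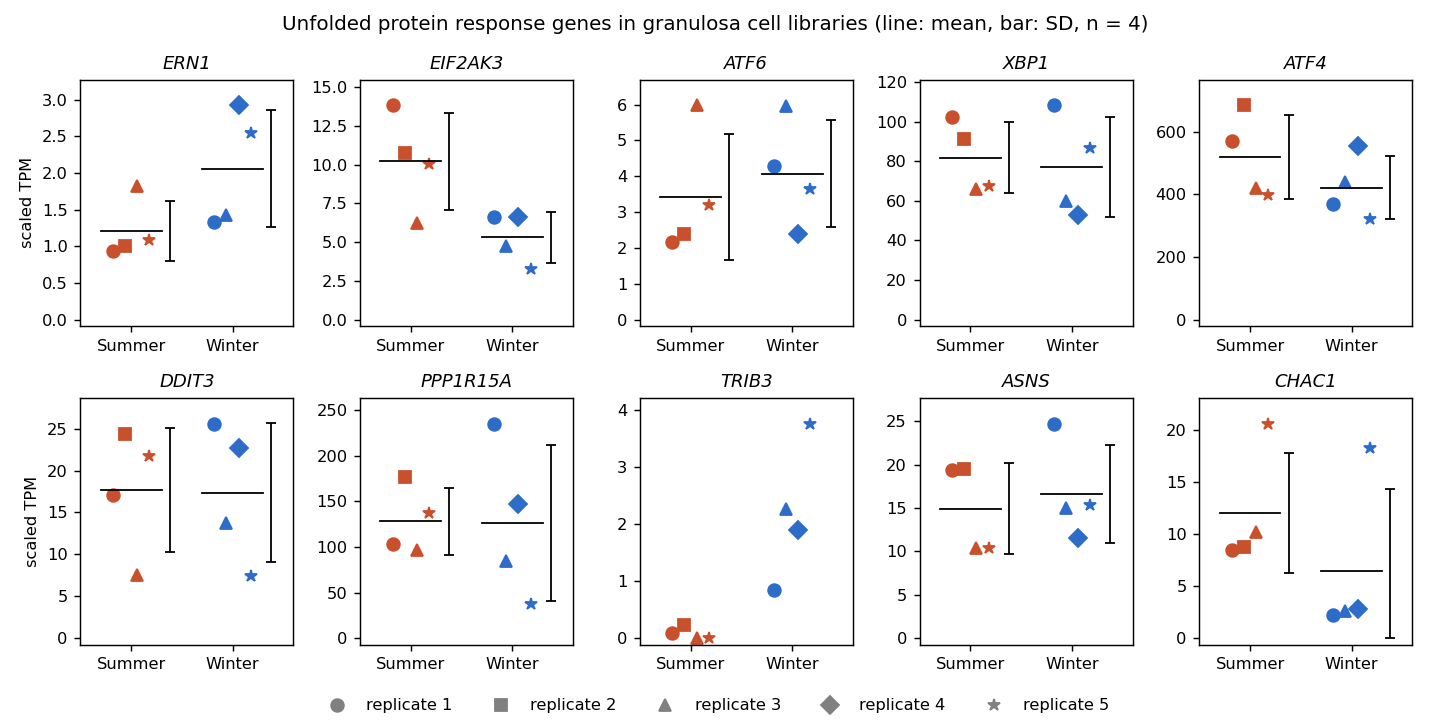
Scaled TPM (vertical axes, each from 0) of the 10 genes in 4 summer and 4 winter libraries of granulosa cells. Each symbol is a library and its shape gives the replicate number; lines are means and bars SD (cut at 0 for *CHAC1* in winter, not drawn for *TRIB3*, which is listed at 0 in 2 libraries). Only *TRIB3* shows seasons that do not overlap, and replicate 5 stands above the others for *CHAC1* in both seasons, at 20.6 and 18.2.

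Scaled TPM is per length, so levels could be ranked between genes. *ATF4* was first in all 8 libraries, followed by *PPP1R15A* and then *XBP1* in all but winter replicate 5, where they changed places. *ATF4*, *PPP1R15A* and *XBP1* thus stood well above the rest. *ATF4* lay at 96.8% to 98.3% of the ranking of all tested genes within a library, *XBP1* at 83.6% to 91.4%, and *ERN1* at 12.7% to 24.9%. In summer the means ran *ATF4*, *PPP1R15A*, *XBP1*, *DDIT3*, *ASNS*, *CHAC1*, *EIF2AK3*, *ATF6*, *ERN1* and *TRIB3*. Among neighbours in that order, the ranges over summer libraries overlapped for *PPP1R15A* and *XBP1* and for each step between *DDIT3* and *EIF2AK3*, and did not overlap elsewhere. In winter the order was the same but for *TRIB3*, whose mean stood above that of *ERN1*, and there every step below *DDIT3* overlapped, as did that of *PPP1R15A* and *XBP1*.

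None of the sensors passed the adjusted p. *EIF2AK3*, the kinase PERK, which phosphorylates the initiation factor eIF2 and so slows translation, had 13.8, 10.7, 6.23 and 10.03 scaled TPM in summer, against 6.60, 4.72, 6.60 and 3.26 in winter. Summer replicate 3 fell within the winter range and the other summer libraries lay above it. Its log2 fold change was 0.82 (95% interval 0.17 to 1.48, adjusted p = 0.0723 by limma), and without summer replicate 3 it was 1.02 with an adjusted p of 0.0326. In rank within a library, a measure free of scaling, *EIF2AK3* stood at 39.8% to 57.6% in summer and 26.7% to 41.2% in winter. With mitochondrial share as a covariate in the model, the log2 fold change was 0.41 (adjusted p = 0.576). Granulosa cell and mitochondrial transcripts, given above, moved with season as well, and their part in this difference was not tested further.

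*ERN1* encodes IRE1, the kinase and endoribonuclease that splices the *XBP1* messenger. It had 0.934, 1.01, 1.82 and 1.08 scaled TPM in summer and 1.34, 1.43, 2.92 and 2.55 in winter. The seasons overlapped through summer replicate 3 alone, the highest of its season (log2 fold change -0.45, 95% interval -1.06 to 0.16, adjusted p = 0.270). At such low levels the added 1 compresses the fold change. *ATF6*, the sensor that is itself cut to a transcription factor, had 2.16, 2.39, 5.98 and 3.19 scaled TPM in summer against 4.29, 5.97, 2.39 and 3.63 in winter. The ranges almost coincided, and replicate 3 was the highest library of either season (log2 fold change -0.22, 95% interval -0.96 to 0.52, adjusted p = 0.676). The ratio of *EIF2AK3* to *ERN1* within a library, which no scaling can change, was 14.8, 10.6, 3.43 and 9.26 in summer and 4.94, 3.31, 2.26 and 1.28 in winter, and overlapped between seasons through summer replicate 3.

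None of the transcription factors passed the adjusted p. *XBP1*, which IRE1 splices into an activator of chaperone and degradation genes, had 102, 91.4, 66.2 and 67.4 scaled TPM in summer and 108, 60.1, 53.0 and 86.6 in winter. The summer values lay within the winter range (log2 fold change 0.12, 95% interval -0.41 to 0.65, adjusted p = 0.761 by limma), an interval that, with this scaling, leaves out a 2-fold change in either direction. Values are summed per gene, so spliced and unspliced *XBP1* cannot be separated. Plasma cells are known for high *XBP1*, and the summed level of their 6 markers was 9.47 to 26.03 scaled TPM in summer against 34.9 to 86.7 in winter. Of these markers *JCHAIN* and *MZB1* were lower in summer. *MZB1* passed the filter on low values through winter only, which favors a lower summer value without fixing it. *MZB1* and *CD38* are listed at 0 in 2 summer libraries each, *POU2AF1* in 1 summer library and *TNFRSF17* in 2 winter libraries. Their part in the *XBP1* level was not tested.

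*ATF4*, the factor whose translation rises when eIF2 is phosphorylated, had 570.4, 683, 421 and 397 scaled TPM in summer against 369.9, 438, 555 and 321 in winter. The seasons overlapped widely (log2 fold change 0.29, 95% interval -0.17 to 0.76, adjusted p = 0.349). Messenger level does not show its translation. *DDIT3*, the factor CHOP of late ER stress, had 17.0, 24.4, 7.59 and 21.7 scaled TPM in summer and 25.6, 13.8, 22.6 and 7.47 in winter. Its libraries spread widely within each season, with coefficients of variation of 41.7% in summer and 47.7% in winter (log2 fold change 0.05, 95% interval -0.88 to 0.97, adjusted p = 0.952). The sign of this value turned in 6 of 20 alternatives. The ratio of *DDIT3* to *ATF4* within a library was 0.0346 ± 0.0153 in summer and 0.0412 ± 0.01996 in winter (SD, n = 4 each), and the seasons overlapped.

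Of the effectors, *TRIB3* passed the adjusted p and *PPP1R15A*, *ASNS* and *CHAC1* did not, and differences among them were not tested. *PPP1R15A*, or GADD34, which recruits a phosphatase to eIF2 and restores translation, had 103, 176, 96.9 and 138 scaled TPM in summer and 235, 85.0, 148 and 37.7 in winter. The winter range enclosed the summer range (log2 fold change 0.27, 95% interval -0.74 to 1.29, adjusted p = 0.707). Without winter replicate 5, the lowest library, the value was -0.20. *ASNS*, asparagine synthetase, a target of ATF4, had 19.4, 19.5, 10.3 and 10.4 scaled TPM in summer and 24.7, 15.0, 11.6 and 15.3 in winter, again overlapping (log2 fold change -0.16, 95% interval -0.81 to 0.49, adjusted p = 0.735).

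*CHAC1*, an enzyme that breaks down glutathione and a target of the ATF4 branch, had 8.48, 8.79, 10.1 and 20.6 scaled TPM in summer against 2.205, 2.57, 2.83 and 18.2 in winter. Replicate 5 was by far the highest in each season, and of the winter libraries it alone reached the summer range. The log2 fold change was 1.18 (95% interval -0.02 to 2.38, adjusted p = 0.145). Without winter replicate 5, *CHAC1* had a log2 fold change of 1.80 and an adjusted p of 0.0118, and without summer replicate 5 these were 0.90 and 0.324. Set against *ATF4* in the same library, *CHAC1* was 0.0149, 0.0129, 0.0241 and 0.0518 in summer, against 0.00596, 0.00588, 0.00510 and 0.0567 in winter, so the pattern of replicate 5 remained when the ratio was taken.

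*TRIB3*, a pseudokinase induced by CHOP that restrains ATF4, was the 1 gene past the threshold. Summer replicate 1 had 0.0820 scaled TPM and summer replicate 2 had 0.227, while summer replicates 3 and 5 are listed at 0, against 0.844, 2.26, 1.90 and 3.76 scaled TPM in winter. Every winter library lay above every summer library (-1.49 ± 0.30 on the log2(scaled TPM + 1) scale, SE, adjusted p = 0.00744). In deposited TPM these levels were at most 0.0731 in summer and 0.0633 to 0.363 in winter, where the highest summer library lay above the lowest winter library. The sign was the same over 19 alternatives, but the size depended on the scale, at -3.70 with a pseudocount of 0.1, -0.49 with one of 5 and -0.25 on the deposited TPM. Adjusted p was 0.00351 to 0.0757 over these alternatives, and at 0.0757, with the mitochondrial share as a covariate, the log2 fold change was -1.61. *TRIB3* passed the filter on low values through winter only, which favors genes that are lower in summer, though it does not fix their direction. The leukocyte, red cell, epithelial and stromal markers that were lower in summer moved with *TRIB3*, and their part in its difference was not tested.

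**Figure D2:**
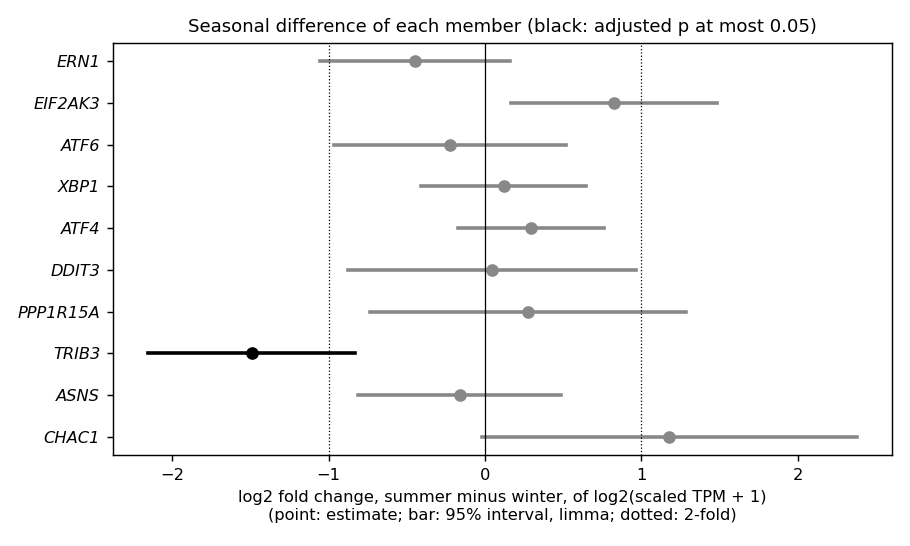
Log2 fold change of each gene, summer minus winter, on the log2(scaled TPM + 1) scale (horizontal axis), with its 95% interval from limma; dotted lines mark a 2-fold change. The interval of *TRIB3*, at -1.49, is the only one drawn in black (adjusted p at most 0.05), and those of *XBP1*, *ATF4*, *ATF6*, *DDIT3* and *ASNS* lie within 2-fold.

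Beyond these 10, other genes of the pathway were counted by role. Of 16 relatives and regulators of the sensors, 14 were tested, and 3 were higher and none lower in summer (background 11.0% and 10.2%, median log2 fold change 0.15). By the unadjusted p, 4 were higher and none was lower (background 19.1% and 16.7%). *ATF6B*, the paralog of *ATF6*, had 71.5, 75.1, 35.7 and 58.8 scaled TPM in summer and 20.3, 26.8, 30.2 and 21.5 in winter, and the seasons did not overlap, with a log2 fold change of 1.22 ± 0.24 (SE, adjusted p = 0.00697). *MBTPS1*, the site-1 protease that cuts ATF6, was at 67.2 ± 9.92 in summer against 43.8 ± 5.34 scaled TPM in winter (SD, n = 4 each, adjusted p = 0.0226). *WFS1*, wolframin, an ER protein that restrains ATF6, was at 9.42 ± 2.93 scaled TPM in summer against 3.72 ± 2.24 in winter (adjusted p = 0.0442). *MBTPS1* and *WFS1* did not pass in several alternatives, and without summer replicate 1 or 2, or winter replicate 5, only 1 of the 14 passed. *ATF6B* passed in all alternatives but that with the mitochondrial share as a covariate. The paralogs *ATF6* and *ATF6B* thus had unlike values, with adjusted p of 0.676 and 0.00697, and the difference between them was not tested.

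None of the 13 genes of the eIF2 kinases other than PERK, of eIF2, of its exchange factor eIF2B and of their partners passed the adjusted p by limma, while 3 were higher and none lower at an unadjusted p under 0.05 (background 19.1% and 16.7%, median 0.07).

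Of 23 known targets of ATF6 and XBP1, 16 were higher and none was lower in summer (median log2 fold change 1.16), against a background of 11.0% and 10.2%. This list was chosen with earlier results of these data known, so the count is a description and no independent result. The authors had already reported *HSPA5*, *HSP90B1*, *DNAJB9* and *DNAJB11* as higher in summer granulosa cells. *HSPA5*, which encodes BiP, the Hsp70 chaperone that holds the sensors inactive, had 1628, 1939, 577 and 1681 scaled TPM in summer, against 280.1, 320.2, 273 and 284 in winter. Every summer library exceeded every winter library, and summer replicate 3 was nearest to winter, with a log2 fold change of 2.19 ± 0.32 (SE, adjusted p = 0.00182). Other genes of smallest adjusted p were *SEL1L*, a scaffold of ER-associated degradation (1.39, adjusted p = 0.00143), the chaperone calnexin, *CANX* (1.23, adjusted p = 0.00158), and *MANF*, a secreted ER stress protein (1.998, adjusted p = 0.00353). The list was not uniform. *DERL3*, *EDEM1*, *SEC24D* and *SDF2L1*, chosen after their values were seen, had log2 fold changes of -0.89, -0.41, -0.17 and -0.24, with adjusted p of 0.0844 to 0.693. *DERL3* was also counted among the plasma cell markers. The number of higher genes ranged from 12 to 19 when a library was left out, was 13 with the replicate number as a block and 3 with the mitochondrial share as a covariate. Over all tested genes, 1789 passed with the block and 299 with the covariate, against 2767 without either. Most markers of granulosa cells rose in the same libraries, and their part in the chaperone values was not tested.

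Of 32 targets of ATF4 and CHOP, 28 were tested, and 3 were higher and 3 lower in summer, with a median log2 fold change of 0.02. These shares were near those of all tested genes, 11.0% higher and 10.2% lower. Higher were *ERO1A*, an ER oxidase that CHOP induces, at 11.98 ± 3.30 in summer against 2.63 ± 1.22 scaled TPM in winter (SD, n = 4 each, log2 fold change 1.87, adjusted p = 0.00363), *CTH*, cystathionine gamma-lyase (adjusted p = 0.00562), at 0.903 to 2.19 scaled TPM in summer and listed at 0 in 3 winter libraries, and *CEBPG*, a partner of ATF4 (0.71, adjusted p = 0.0235). *CTH* passed the filter through summer only, which favors a higher summer value without fixing it. With zFPKM above -3 asked of all 8 libraries 2 genes were higher. Lower were the stress-response regulator *NUPR1*, at 7.90, 22.3, 35.7 and 11.8 scaled TPM in summer against 455, 141, 226 and 378 in winter (-3.95, adjusted p = 0.000921), the tryptophanyl-tRNA synthetase *WARS1*, which interferon also induces (-1.19, adjusted p = 0.00282), and the AP-1 repressor *JDP2* (-1.54, adjusted p = 0.00767). On the deposited TPM *JDP2* did not pass and *WARS1* turned to a log2 fold change of 0.29, *CEBPG* did not pass without summer replicate 1, 2 or 5 or without winter replicate 5, and with the mitochondrial share as a covariate none was higher and 1 lower. *STC2*, *SLC7A11*, *GDF15* and *BBC3* did not pass the filter.

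**Figure D3:**
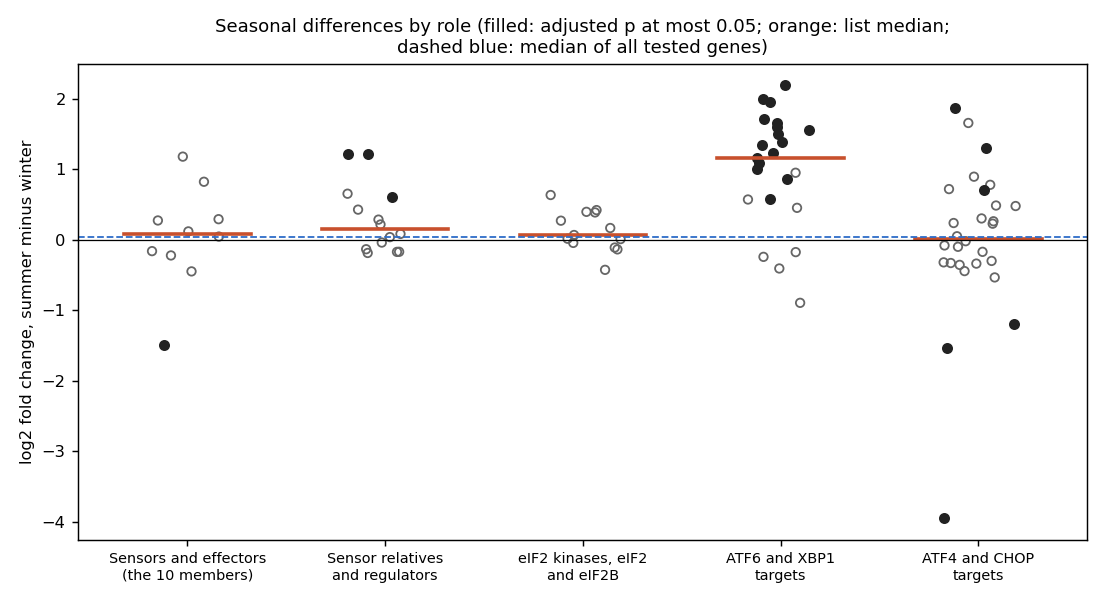
Log2 fold change, summer minus winter, of each tested gene (vertical axis), grouped by role, with filled points for genes past the adjusted p. Orange bars are list medians and the dashed line is the median of all tested genes, 0.03; 16 of 23 targets of ATF6 and XBP1 are filled and above 0, while 1 of the 10 sensors and effectors is filled, below 0.

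*HSPA5* was set beside the transcription factors as a log2 ratio within each library, which no scaling between libraries can change. These ratios were chosen after the rise of *HSPA5* had been seen, so they are given as a description, and no test of them is reported. The log2 ratio of *HSPA5* to *XBP1* was 3.99, 4.41, 3.12 and 4.64 in summer and 1.37, 2.41, 2.37 and 1.71 in winter. All summer libraries were above all winter libraries, with a difference of 2.07 (1.87 to 2.38 with any 1 library left out). For *ATF4* the log2 ratio was 1.39 ± 0.68 in summer and -0.51 ± 0.36 in winter (SD, n = 4 each), again with no overlap, and the difference was 1.90 (1.67 to 2.21 with any 1 library left out). For *ATF6* it was 8.71 ± 1.44 in summer and 6.23 ± 0.47 in winter, a difference of 2.49, and summer replicate 3, at 6.59, fell below winter replicate 4, at 6.84. Without summer replicate 3 the *ATF6* difference was 3.20.

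**Figure D4:**
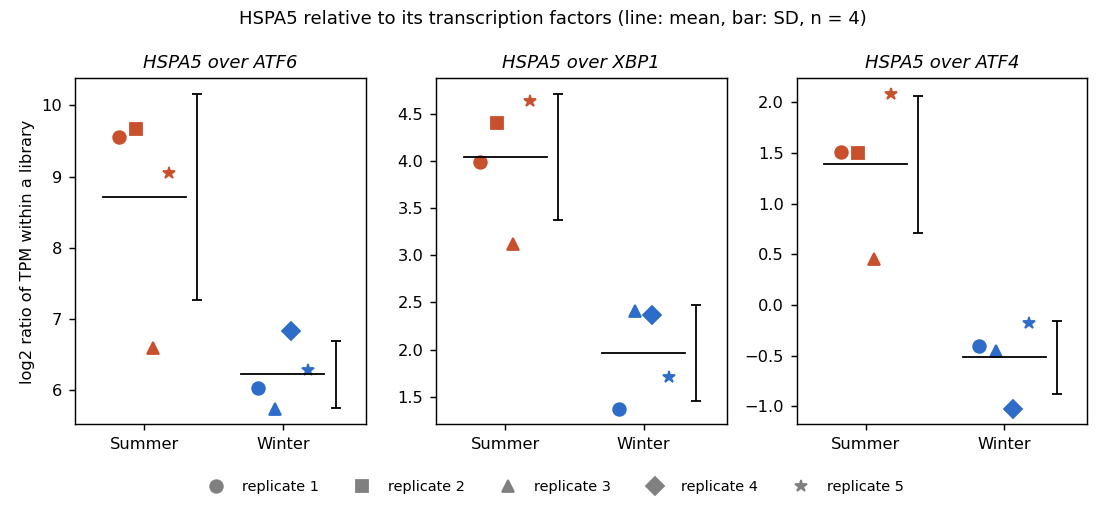
Log2 ratio of *HSPA5* to *ATF6*, *XBP1* and *ATF4* TPM within each library (vertical axes, which do not start at 0), in 4 summer and 4 winter libraries; shapes give the replicate number, lines the mean and bars the SD. The seasons are apart for *XBP1* (difference 2.07) and *ATF4* (1.90), and summer replicate 3 lies among the winter libraries for *ATF6*.

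The genes most like the transcription factors across the 8 libraries were named by Pearson's r of log2(scaled TPM + 1), as a description over libraries that also differ in cell makeup. For *XBP1* these were *GTF2A2* (r = 0.95), *PIM3* (0.95) and *MYC* (0.95), for *ATF4* they were *IGLON5* (0.97), *UBE2L3* (0.96) and *SLC22A18* (0.96), and for *DDIT3* they were *TUBA8* (0.94), *TBX2* (0.93) and *GAL3ST4* (0.93). *UBE2L3*, for one, was at 119 to 175 scaled TPM over the 8 libraries, a narrower spread than that of *ATF4*, at 321 to 683. *SLC22A18* is listed at 0 in winter replicates 1 and 5. These genes were picked as the highest r among all tested genes, and whether unrelated genes would reach such r over 8 libraries was not tested.

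On the deposited TPM, without any rescaling, 7 of the 10 genes passed as higher in summer and 1 as lower. There all tested genes had a median of 0.89 and the 10 genes one of 1.29, so these calls include the shift of all genes. With mitochondrial genes left out but no trimmed-mean factor, the median of all genes was 0.28, and *EIF2AK3* and *ATF4* passed as higher.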

How the data were processed

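The deposited TPM came from the authors, whose methods say that reads were trimmed and mapped to ARS-UCD1.3 in CLC Genomics Workbench with trimmed-mean-of-M-values (TMM) normalization, whereas the sample notes name Bowtie2 2.2.2, DESeq2 and ARS-UCD1.2. Each deposited library sums to 1000000, so no TMM factor is left.

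Scaled TPM leaves out 13 mitochondrial genes encoding proteins, sets what remains to 1000000 and applies an unweighted TMM factor (30% of M, 5% of A trimmed). A gene was tested if its zFPKM exceeded -3 throughout at least 1 season, by means of limma 3.58.1 (R 4.3.3; lmFit, eBayes with trend) on log2(scaled TPM + 1), with Benjamini-Hochberg adjustment. Called genes also changed 2-fold and exceeded that zFPKM throughout the higher season. The fit was tested on simulated data in which both seasons had the spread of the winter libraries, with a cap. Changes were added only to genes of higher mean in winter, so recovery was not examined for genes as low there as *TRIB3*, *ERN1*, *ATF6* and *CHAC1*. The wider summer spread of genes such as *HSPA5* was not simulated either. P-values measure the spread between pools. Paralogs that share reads, and overlapping genes, cannot be separated.

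The members and gene lists were chosen with earlier results of these data known. All members are named, with up to 4 genes of smallest adjusted p per list and direction and the 3 genes most like each of *XBP1*, *ATF4* and *DDIT3*. Alternatives covered scaling, pseudocount, filter, variance model, library weights, replicate block, mitochondrial share and leaving out each library. Sequences and coordinates were not used here. Figures were drawn with matplotlib 3.10.9.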

Additional observations from a re-analysis of the deposited data

Results flagged for a closer look

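In 3 of 20 sets of 4 libraries (10 genes in each season), a single library stood apart from the other 3 by Dixon's criterion. Chance alone meets it in about 1 in 20 sets of normally distributed values, and the rate for scaled TPM was not examined. *CHAC1* was at 18.2 scaled TPM in winter replicate 5, where the other winter libraries had 2.205 to 2.83, and at 20.6 in summer replicate 5, where the other summer libraries had 8.48 to 10.1. *ERN1* was at 1.82 scaled TPM in summer replicate 3, where the other summer libraries had 0.934 to 1.08.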

How the results depend on the processing

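The count of genes past the adjusted p, 1 of 10 (*TRIB3*), became 8 on the deposited TPM, 3 without the TMM factor, 2 with library weights, 0 with zFPKM above -3 in all 8 libraries, where *TRIB3* was not tested, and 0 with the mitochondrial share as a covariate (1 gene each at an unadjusted p under 0.05 by limma in these last cases). It was 1 to 2 with a library left out: *EIF2AK3* passed without summer replicate 3 and *CHAC1* without winter replicate 5. The count of called genes, 1, became 7, 2, 2, 0 and 0 under the same settings, 0 with a pseudocount of 5, and 1 to 2 with a library left out. The other pathway genes past the adjusted p, 25, were 63 on the deposited TPM, 39 without the TMM factor, 4 with the covariate and 18 to 31 with a library left out. Over all tested genes, 801 were called higher and 870 lower, against 5529 and 81 on the deposited TPM and 1570 and 651 without the TMM factor.

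Several log2 fold changes that had not passed turned sign. On the deposited TPM, *ERN1* was at 0.15, *ATF6* at 0.43 and *ASNS* at 1.01. Without the TMM factor, *ATF6* was at 0.01 (0.00777) and *ASNS* at 0.11. With the covariate, *ATF6* was at 0.23, *XBP1* at -0.13 and *DDIT3* at -0.30. *DDIT3* was at -0.030 under quantile normalization. With a library left out, *XBP1* ranged from -0.038 (without winter replicate 4) to 0.30, *DDIT3* from -0.28 to 0.39 (below 0 when replicate 2 or 5 of summer, or 3 or 5 of winter, was omitted), *PPP1R15A* from -0.20 (without winter replicate 5) to 0.67 and *ASNS* from -0.31 to 0.037 (without winter replicate 1).

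Equal replicate numbers were not taken as pairs, since the deviations of libraries with equal numbers correlated at 0.04, 0.16 and 0.11, which is not over 0.1 for every number. Of the 6 libraries that share a number across seasons, 5 correlated best with their own number, and replicate 1 of winter with summer replicate 2. With the replicate number as a block, 1 of 10 genes passed and 21 of the other pathway genes did, and *XBP1* was at -0.10.

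The mitochondrial share differed by -17.6 points, -23.2 to -10.8 with a library left out, with an exact p of 0.0286 without summer replicate 3. The paper gives only an average read number over the granulosa cell libraries. The depth of each library is unknown, which limits *TRIB3* and *ERN1* most. Genes other than the 13 mitochondrial ones held 12.3% to 49.3% of TPM in summer and 8.02% to 14.9% in winter. How this bears on genes of low level was not tested.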

Other observations

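Replicate 5 stood apart and above for *CHAC1* in both seasons. It was the highest library of both seasons for 849 of 13046 tested genes (6.51%), but it passed Dixon's criterion in both for only 2 of them, *CHAC1* and *CNDP1*, a carnosine dipeptidase. *CNDP1* had 1.203 scaled TPM in summer replicate 5, with 0.148 to 0.274 in the other summer libraries, and 0.324 in winter replicate 5, with the other winter libraries listed at 0. This search was made after the values of *CHAC1* were seen, and no test was made of it.

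Summer replicate 3 stood nearest to winter in several values given above. Its targets of ATF6 and XBP1 summed to 4094 scaled TPM, with 9796 to 11179 in the other summer libraries and 2578 to 3012 in winter, and its mitochondrial share was 87.7%.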
